A study of Mus musculus with 9 samples.

Results

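Genes of antigen presentation by MHC class II were examined in RNA-seq libraries of bone marrow (BM) endothelial cells (ECs). The 7 genes were taken from the deposited table of read counts by their gene names, out of 46078 genes listed there: H2-Aa, H2-Ab1 and H2-Eb1 (chains of the classical class II molecules), Cd74 (the invariant chain), H2-DMa and H2-DMb1 (chains of the peptide exchange molecule H2-DM) and Ciita (the class II transactivator). Each was found once, and each passed the filter on low counts, as did 15937 genes in all. ECs were sorted from BM of wild type B6 mice as CD45-Ter119-CD31+ cells, and were split by Sca-1, the surface protein encoded by Ly6a. There were 4 libraries of Sca-1+ cells and 5 libraries of Sca-1- cells, with no treatment given in the labels. Every library is labelled B6 and wild type, but the titles of libraries 10, 13, 14 and 22 carry CD452 or its digits alone, those of 8, 15, 16 and 19 carry wt, and that of 7 carries neither. The libraries are called here by the number that ends their labels, 7, 13, 15 and 19 for Sca-1+ and 8, 10, 14, 16 and 22 for Sca-1-. Labels of libraries 15 and 16 share a mouse number, and nothing states that every other library came from a separate animal, so p-values measure the spread between these libraries. The labels also open with running numbers that do not overlap between the fractions, so that any step that followed these numbers cannot be told apart from the fraction.

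A class II molecule is made of an alpha and a beta chain. It is assembled in the endoplasmic reticulum with the invariant chain, which blocks the peptide groove and directs the complex to endosomes. There, cathepsins degrade the invariant chain down to a short remnant, H2-DM exchanges this remnant for a peptide from an engulfed protein, and H2-DO restrains H2-DM. The loaded molecule is shown at the cell surface to CD4+ T cells. Dendritic cells, B cells and macrophages carry class II constantly, whereas other cells, ECs among them, can be induced to do so by interferon gamma. The RFX complex, CREB and NF-Y bind the promoters of these genes at the X and Y boxes, and CIITA, which itself does not bind DNA, is recruited to them. B6 mice carry the b haplotype, which makes A molecules (H2-Aa with H2-Ab1) but no E alpha chain, so that the E beta chain H2-Eb1 has no partner.

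Total counts were between 21581653 and 25959818 per library. Ly6a, the gene of the sorted marker, had 874 to 1306 CPM (counts scaled to library size, with TMM factors) in Sca-1+ and 0.240 to 1.49 CPM in Sca-1-, in accordance with the labels. Genes that mark ECs in general summed to 22638 to 25417 CPM in Sca-1+ and to 1987 to 4706 CPM in Sca-1-. In Sca-1-, 13 megakaryocyte genes summed to 25297 to 107354 CPM, above the general EC genes of the same libraries, against 33.5 to 83.1 CPM in Sca-1+. The fraction labelled Sca-1- ECs thus held much RNA of genes that are not EC genes, and values of whole fractions are given below. In bulk libraries fewer cells of a type and less RNA per cell cannot be told apart. Of all genes tested, 44.8% differed between the fractions with an adjusted p under 0.05 (edgeR's quasi-likelihood test with Benjamini-Hochberg adjustment), 23.3% being higher and 21.4% lower in Sca-1+.

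The promoter of a class II gene is the sequence through which CIITA acts. Stretches before the start of 3 genes with a spaced pair of boxes are shown. Beside them stands the stretch before one RefSeq start of H2-DMa, where no pair was found. RefSeq windows on GRCm38.p6, from 250 bases before to 50 after a gene start, were matched for 4 of the 7 genes (H2-Aa, H2-Eb1, H2-DMa and H2-DMb1). They were searched on the gene's strand for an X box core, GNAAC, followed 30 to 33 bases later (start to start) by the Y box, ATTGG. The other strand was searched only for the shares given below. Both motifs and the distance were chosen after these windows had been read. The stretches below run 5′ to 3′ on the gene's strand from 110 to 31 bases before the start, with the X core and the Y box of a pair in capitals. They lie at chr17:34287854-34287933 (minus strand) for H2-Aa, chr17:34305757-34305836 (plus) for H2-Eb1, chr17:34238795-34238874 (plus) for H2-Ob and chr17:34122722-34122801 (plus) for H2-DMa.
H2-Aa: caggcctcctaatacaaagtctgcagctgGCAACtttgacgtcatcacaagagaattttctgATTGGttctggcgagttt
H2-Eb1: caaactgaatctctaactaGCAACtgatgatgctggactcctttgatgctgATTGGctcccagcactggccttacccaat
H2-Ob: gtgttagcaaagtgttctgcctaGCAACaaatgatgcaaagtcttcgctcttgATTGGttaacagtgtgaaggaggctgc
H2-DMa: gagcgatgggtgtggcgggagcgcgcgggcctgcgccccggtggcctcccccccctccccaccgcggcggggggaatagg
The X core and the Y box began 81 and 48 bases before the start in H2-Aa, 91 and 59 in H2-Eb1, and 87 and 57 in H2-Ob, the beta chain of H2-DO. H2-DMb1 held the pair too, at 94 and 61 bases before the start, as did H2-Oa, the alpha chain of H2-DO, at 76 and 43. No pair was found in the window of H2-DMa, the GC-rich stretch above, nor in that of its other RefSeq start, nor in that of H2-DMb2, the near copy of H2-DMb1. Both RefSeq starts of H2-DMa, 34122832 and 34125518, lie inside the GENCODE span of the gene given below, whose outermost start was not searched. Other starts within that span were not searched either. Whether a searched start is that of the principal transcript was not checked, so these windows do not show that H2-DMa lacks the pair. The pair was present in 0.353% of 32851 windows of the same length on the gene's strand, and in 0.712% on either strand. The X core alone was in 84.8% and the Y box alone in 37.4%, on either strand. A match describes letters and not a bound site.

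The classical chains had more reads in Sca-1+ than in Sca-1-, and so did the invariant chain. Of the 7 genes, 4 (H2-Aa, H2-Ab1, H2-Eb1 and Cd74) were higher in Sca-1+ with an adjusted p under 0.05, beside 23.3% of all genes tested, and none was lower, beside 21.4%; at an unadjusted p under 0.05, H2-DMa was lower and H2-DMb1 higher, and H2-DMa was lower by DESeq2 and limma voom. The other 3 (H2-DMa, H2-DMb1 and Ciita) did not pass the threshold. The median log2 fold change of the 7 genes was 2.86, against 0.07 over all genes tested. The Sca-1+ library 19 held more of each of the 7 genes than any other Sca-1+ library, 3.72 times (H2-DMa) to 16.8 times (Ciita) the median of the others, so values without it are given beside each. Of the 4 called genes, H2-Ab1 kept its call in 19 of 20 other fits, and H2-Aa and Cd74 kept theirs in 16 and H2-Eb1 in 14.

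H2-Ab1, the beta chain of the A molecule (chr17:34257689-34269419, plus strand), had the firmest difference among the 7 genes. It had 41.6, 82.5, 27.3 and 186 CPM in Sca-1+ libraries 7, 13, 15 and 19, and 4.81, 2.79, 8.78, 13.1 and 16.5 CPM in Sca-1- libraries 8, 10, 14, 16 and 22. The fractions did not overlap, as was so for 24.8% of all genes tested in this direction. H2-Ab1 was 9.12-fold higher in Sca-1+ (84.4 ± 71.7 CPM, SD, n = 4, against 9.21 ± 5.69 CPM, SD, n = 5; log2 fold change 3.19, SE 0.65, adjusted p = 0.0029, edgeR). The exact two-sided permutation test of log2 CPM over the libraries gave p = 0.0079, the smallest it can give. Without library 19 the other 3 Sca-1+ libraries averaged 50.5 ± 28.7 CPM, and the log2 fold change was 2.45 (adjusted p = 0.0087, edgeR).

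H2-Aa, the alpha chain that pairs with H2-Ab1 (chr17:34282744-34287823, minus strand), had 11.3, 28.6, 8.08 and 86.7 CPM in Sca-1+ libraries 7, 13, 15 and 19. In Sca-1- libraries 8, 10, 14, 16 and 22 it had 2.10, 0.698, 1.74, 0 and 5.29 CPM. The fractions did not overlap here either. It was 17.0-fold higher in Sca-1+ (log2 fold change 4.09, SE 1.12, adjusted p = 0.013, edgeR; exact permutation p = 0.016). Without library 19 the log2 fold change was 3.02 and no longer passed the threshold (adjusted p = 0.056, edgeR). The Sca-1- library 16 had 0 counts of H2-Aa, which allows up to 3 counts, and 395 counts of H2-Ab1.

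H2-Eb1, the E beta chain (chr17:34305867-34316674, plus strand), had 5.69, 12.3, 4.14 and 54.4 CPM in Sca-1+ libraries 7, 13, 15 and 19. Its values were 0.541, 2.93, 3.27, 1.99 and 4.36 CPM in Sca-1- libraries 8, 10, 14, 16 and 22. Library 15, the lowest of Sca-1+, lay below library 22, the highest of Sca-1-. H2-Eb1 was 7.28-fold higher in Sca-1+ (log2 fold change 2.86, SE 0.81, adjusted p = 0.016, edgeR; exact permutation p = 0.016), but without library 19 its log2 fold change was 1.5, short of the threshold (adjusted p = 0.090, edgeR).

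Cd74 (on chromosome 18), whose product escorts class II molecules and also acts at the cell surface as a receptor for the cytokine MIF, had the widest range of the called genes within Sca-1+. It had 33.7, 119, 16.1 and 469 CPM in Sca-1+ libraries 7, 13, 15 and 19. In Sca-1- libraries 8, 10, 14, 16 and 22 it had 15.4, 3.70, 17.1, 9.33 and 23.6 CPM. The highest Sca-1+ library had 29.1 times the level of the lowest, and library 15 lay below 2 libraries of Sca-1-. Cd74 was 11.5-fold higher in Sca-1+ (log2 fold change 3.53, SE 0.91, adjusted p = 0.010, edgeR; exact permutation p = 0.024), and without library 19 the log2 fold change was 2.03 (adjusted p = 0.042, edgeR). By limma voom Cd74 and H2-Eb1 missed the threshold (adjusted p = 0.051 and 0.063).

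**Figure D1:**
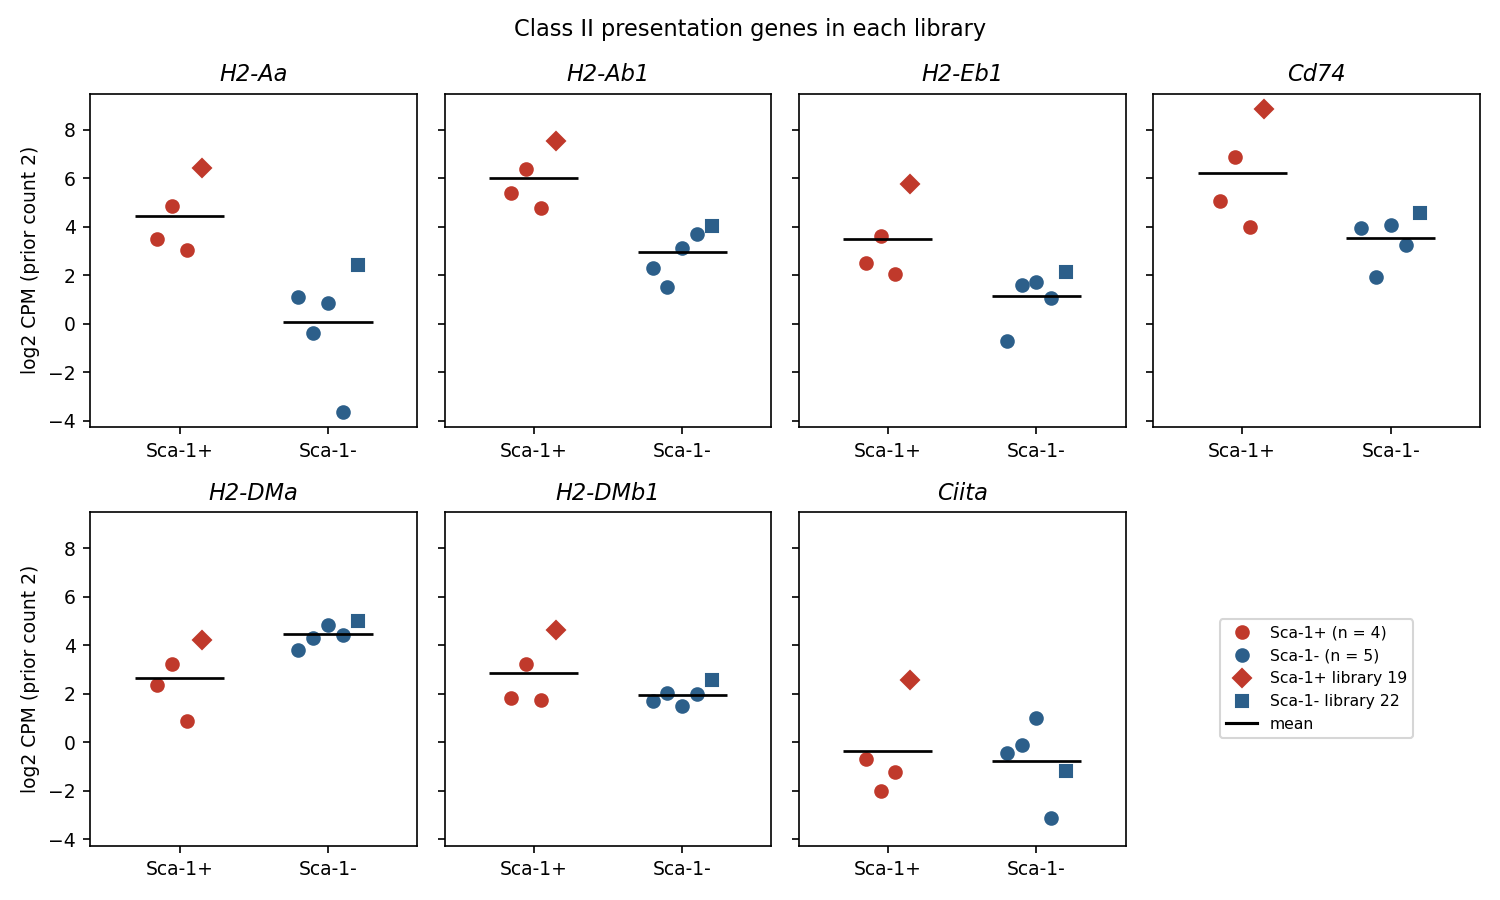
Level of each of the 7 genes in each library (log2 CPM with a prior count of 2), Sca-1+ in red and Sca-1- in blue. Library 19 is a diamond, library 22 a square, and a line marks the mean of each fraction. Library 19 is the highest Sca-1+ library in every panel; H2-Aa and H2-Ab1 do not overlap between the fractions, and H2-DMa lies higher in Sca-1-.

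Neither chain of H2-DM passed the threshold, and their fold changes had opposite signs. H2-DMa (chr17:34119541-34139101, plus strand), the alpha chain of the exchange molecule, had 5.01, 9.23, 1.76 and 18.6 CPM in Sca-1+ libraries 7, 13, 15 and 19. It had 13.9, 19.8, 28.6, 21.6 and 31.6 CPM in Sca-1- libraries 8, 10, 14, 16 and 22. All Sca-1+ libraries other than 19 lay below all Sca-1- libraries. The mean was 8.66 ± 7.31 CPM (SD, n = 4) in Sca-1+ and 23.1 ± 7.08 CPM (SD, n = 5) in Sca-1-, a log2 fold change of -1.42 (SE 0.57) that missed the threshold (adjusted p = 0.068, edgeR; exact permutation p = 0.016). Without library 19 the log2 fold change was -2.11 and passed (adjusted p = 0.013, edgeR), and with all libraries it passed by DESeq2 (adjusted p = 0.022) and limma voom (adjusted p = 0.016). Exons of H2-DMa overlap 360 bases of Brd2 on the opposite strand, and the use of strand in the counting is not given in the sources used here. Brd2 had more counts than H2-DMa in every library (3389 to 9164 in Sca-1+ and 1011 to 2723 in Sca-1-), so the value of H2-DMa is uncertain.

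H2-DMb1, the beta chain of H2-DM (chr17:34153072-34160230, plus strand), had 3.48, 9.19, 3.25 and 24.8 CPM in Sca-1+ libraries 7, 13, 15 and 19. In Sca-1- libraries 8, 10, 14, 16 and 22 it had 3.18, 4.05, 2.72, 3.95 and 5.86 CPM. Libraries 7 and 15 lay within the Sca-1- range and libraries 13 and 19 above it. The log2 fold change of 1.36 (SE 0.60) did not pass the threshold (adjusted p = 0.088, edgeR; exact permutation p = 0.21). Without library 19 it was 0.43 (adjusted p = 0.51, edgeR). H2-DMb1 shares 22.7% of the 50-base stretches of its exons with its near copy H2-DMb2, so reads from one could be counted on the other, or on neither.

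Ciita (chr16:10480059-10528418, plus strand), the transactivator that the classical promoters depend on, was close to the limit of detection. It had 16, 5, 10 and 150 counts in Sca-1+ libraries 7, 13, 15 and 19, that is 0.545, 0.170, 0.345 and 5.81 CPM. In Sca-1- libraries 8, 10, 14, 16 and 22 it had 11, 12, 45, 1 and 9 counts, or 0.661, 0.838, 1.91, 0.0332 and 0.366 CPM. Apart from library 19, every Sca-1+ value lay inside the Sca-1- range. The log2 fold change of 1.17 (SE 1.15) was not past the threshold (adjusted p = 0.43, edgeR; exact permutation p = 0.72), with a 95% interval of -1.08 to 3.42, and without library 19 it was -1.09 (adjusted p = 0.43, edgeR). In the 3 Sca-1+ libraries with the fewest Ciita reads, H2-Ab1 had 790 to 2423 counts, against 40 to 406 in Sca-1-. Exons of Ciita overlap 329 bases of Dexi on the opposite strand, and the use of strand in the counting is not given. Dexi had more counts than Ciita in every library (701 to 1126 in Sca-1+ and 217 to 817 in Sca-1-), so the value of Ciita is uncertain too.

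**Figure D2:**
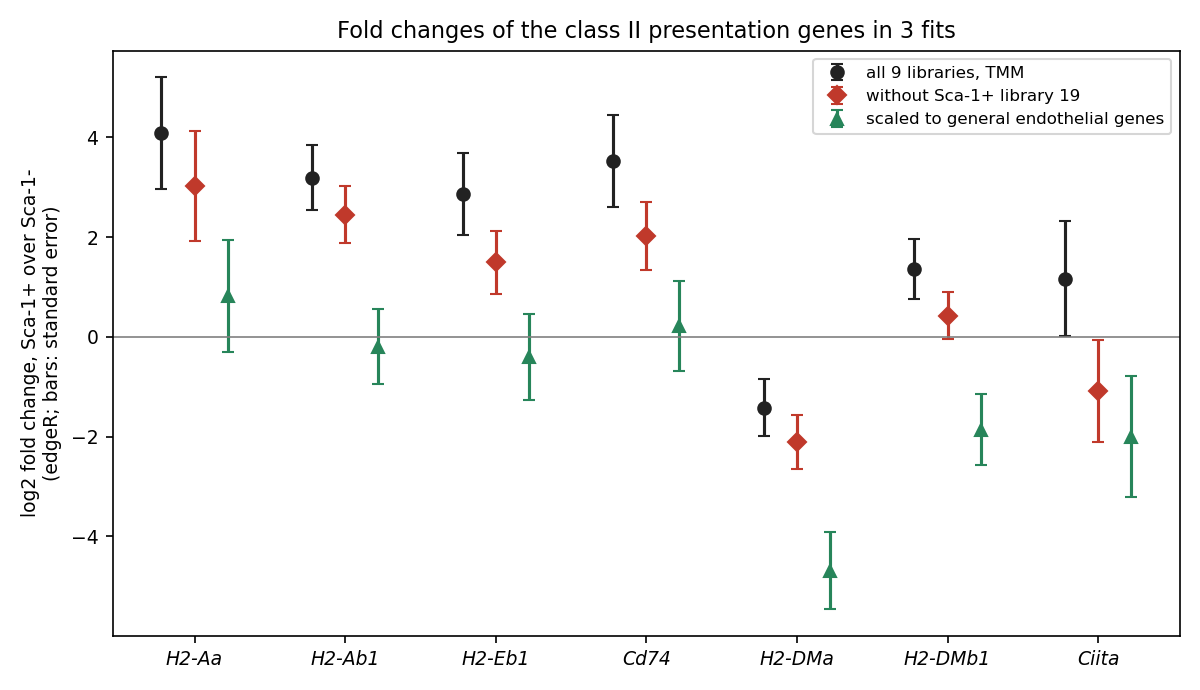
Log2 fold change of each gene, Sca-1+ over Sca-1-, with its standard error (edgeR), in 3 fits. They used all 9 libraries with TMM, all libraries but Sca-1+ library 19, and all 9 libraries scaled to the general EC genes. H2-Ab1 falls from 3.19 to 2.45 without library 19 and Ciita goes from 1.17 to -1.09, while H2-DMa stays below 0 in all 3 fits.

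Ratios of a pair of genes within a library do not depend on how libraries are scaled to each other. They were computed for 6 pairs and tested with the exact two-sided permutation test, with p-values adjusted over the 6. No ratio of H2-Aa, H2-Eb1 or Cd74 to H2-Ab1 passed the test. The log2 ratio of H2-Aa over H2-Ab1 averaged -1.56 in Sca-1+ and -1.74 in Sca-1- (exact p = 0.54), without the Sca-1- library 16, where H2-Aa was at 0 and the log2 ratio was at most -7.04 (3 counts). With library 16 at its value under the prior count, the Sca-1- mean was -2.86 and the difference 1.3 in place of 0.18 (exact p = 0.44). For H2-Eb1 over H2-Ab1 the averages were -2.51 and -1.78 (exact p = 0.32), and for Cd74 over H2-Ab1 they were 0.20 and 0.61 (exact p = 0.49).

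The proportion of H2-DMa to H2-Ab1 did differ, the only ratio of an H2-DM chain to a classical chain that was computed. H2-DMa over H2-Ab1 had a log2 ratio of -3.35 ± 0.38 (SD, n = 4) in Sca-1+ and 1.53 ± 0.81 (SD, n = 5) in Sca-1-, a difference of -4.88 with no overlap (exact p = 0.0079, adjusted p = 0.024). Each Sca-1+ library thus held fewer reads of H2-DMa than of H2-Ab1, library 19 included, and each Sca-1- library held more. The chains of H2-DM also changed against each other: H2-DMb1 over H2-DMa averaged 0.19 ± 0.58 (SD, n = 4) in Sca-1+ and -2.51 ± 0.49 (SD, n = 5) in Sca-1-, a difference of 2.70 (exact p = 0.0079, adjusted p = 0.024). Both ratios hold H2-DMa, with its overlap with Brd2. Ciita over H2-Ab1 averaged -6.35 in Sca-1+ and -2.93 in Sca-1- (exact p = 0.057, adjusted p = 0.11), without the Sca-1- library 16, where Ciita had 1 count. The ratio of library 16 was -6.85, within the Sca-1+ range of -8.36 to -4.98, and with it the Sca-1- mean was -3.72 (exact p = 0.10). Ciita over H2-Ab1 carries the overlap of Ciita with Dexi.

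**Figure D3:**
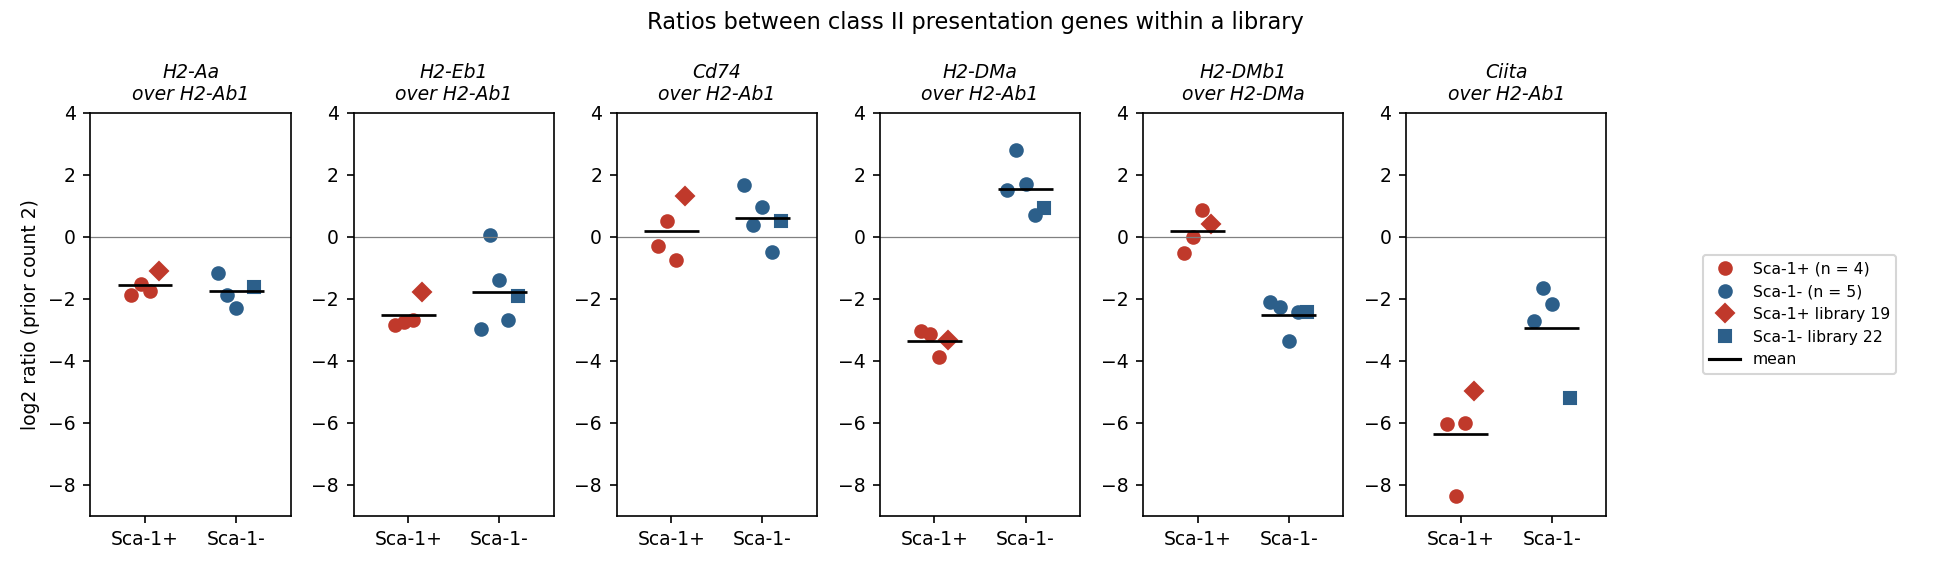
Log2 ratio of counts of 6 pairs of genes within each library, Sca-1+ in red and Sca-1- in blue, with lines at the means. The classical pairs overlap between the fractions, while H2-DMa over H2-Ab1 is below 0 in each Sca-1+ library and above 0 in each Sca-1- library.

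Per kilobase of the principal transcript, which allows genes to be set side by side, the order of levels differed between the fractions. In Sca-1+ the means were 113 ± 150 CPM per kb for Cd74, 69.6 ± 59.2 for H2-Ab1, 29.9 ± 32.3 for H2-Aa, 11.5 ± 14.2 for H2-Eb1, 7.25 ± 7.21 for H2-DMb1, 5.22 ± 4.41 for H2-DMa and 0.286 ± 0.455 for Ciita (SD, n = 4). Each step of this order from H2-Ab1 to H2-DMb1, and that from H2-DMa to Ciita, held in 4 of 4 libraries. Cd74 exceeded H2-Ab1 in 2 of 4 and H2-DMb1 exceeded H2-DMa in 3 of 4, so those neighbours are not ordered. In Sca-1- H2-DMa came first with 13.9 ± 4.27 CPM per kb, followed by Cd74 with 9.79 ± 5.39, H2-Ab1 with 7.60 ± 4.70, H2-DMb1 with 2.82 ± 0.856, H2-Aa with 1.74 ± 1.81, H2-Eb1 with 1.57 ± 0.861 and Ciita with 0.127 ± 0.118 (SD, n = 5). There, H2-Eb1 exceeded Ciita in 5 of 5 libraries, H2-Aa exceeded H2-Eb1 in 2 of 5, and every other step held in 4 of 5. Among the 13322 tested genes with a principal transcript length, ranked by level per kilobase, H2-Ab1 lay between the 76.8th and 96.8th percentile in Sca-1+ libraries and between the 37.9th and 67.0th in Sca-1- libraries.

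Cells that carry class II constantly could be present in either gate, and sums and single genes of marker lists are given here. In library 19, 10 plasma cell genes summed to 2085 CPM, where Sca-1+ libraries 7, 13 and 15 had 25.9 to 49.5 CPM. This was mostly Igkc, the kappa light chain constant gene, with 51186 counts there and 9, 18 and 7 in libraries 7, 13 and 15. Jchain, which joins secreted antibodies, had 940 counts there and 4 to 25 in libraries 7, 13 and 15. The 10 neutrophil genes summed to 774 CPM in library 19 and to 8.29 to 56.6 CPM in libraries 7, 13 and 15. In Sca-1- the neutrophil list summed to 134 to 759 CPM, highest in library 14. The plasma cell list summed there to 32.2 to 569 CPM, highest in library 22. Ms4a1 and Cd22, defining genes of B cells, had 0 counts in all 4 Sca-1+ libraries, each of which allows up to 3 counts or 0.102 to 0.116 CPM. Both were low in Sca-1- as well. There Ms4a1 had 0 to 28 counts, and Cd22 had 0 in libraries 8, 10 and 16 and 64 and 100 in libraries 14 and 22. Cd79b, another gene of the B cell list, had 74 counts in library 19 and 16, 17 and 0 in libraries 7, 13 and 15.

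The 12 genes of the B cell list summed to 121 to 280 CPM in Sca-1+ and to 21.2 to 514 CPM in Sca-1-. In Sca-1+ most of that was Ebf1, with 117 to 261 CPM, a factor that stromal and mural cells also make. The macrophage and monocyte list summed to 312 to 407 CPM in Sca-1+ and to 863 to 2496 CPM in Sca-1-, and in Sca-1- this was mostly Lyz2, a gene that neutrophils share. Without Lyz2 the list summed to 222 to 404 CPM in Sca-1+ and to 19.3 to 91.3 CPM in Sca-1-. Of 11 tested genes of this list, 3 were higher in Sca-1+, 1 was lower and 7 did not pass, beside 23.3% higher and 21.4% lower among all genes. Cd14, Mrc1 and Mertk were the higher ones, with means of 168, 113 and 27.9 CPM against 9.59, 3.81 and 2.61 CPM (adjusted p = 1.7e-04, 8.5e-04 and 3.2e-04, edgeR). Among those that did not pass, Csf1r, Adgre1 and C1qa had means of 4.32, 0.528 and 1.14 CPM in Sca-1+. Their means in Sca-1- were 4.83, 1.87 and 1.51 CPM.

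The dendritic cell list summed to 89.9 to 100 CPM in Sca-1+ and to 50.2 to 254 CPM in Sca-1-. Most of the Sca-1+ sum was Zbtb46 (77.1 to 87.1 CPM), which ECs also make, and without it the sums were 7.15 to 18.7 and 26.9 to 247 CPM. Of 6 tested genes of this list, 1 was higher in Sca-1+, 2 were lower and 3 did not pass, beside 23.3% higher and 21.4% lower among all genes. The lower ones, Xcr1 and Clec9a, mark cross-presenting dendritic cells. They averaged 0.175 and 1.31 CPM in Sca-1+ and 55.8 and 42.4 CPM in Sca-1-. Batf3 averaged 1.11 CPM in Sca-1+ and 0.219 CPM in Sca-1- and did not pass (adjusted p = 0.11, edgeR). Itgax, which encodes CD11c, had 0 counts in Sca-1+ libraries 7, 13 and 15 and 2 counts in library 19. In Sca-1- Itgax averaged 0.432 CPM, Flt3 1.66 CPM and Siglech 0.376 CPM. The general leukocyte list summed to 119 to 193 CPM in Sca-1+ and to 1877 to 3585 CPM in Sca-1-. The Sca-1+ sum was mostly Lcp1 (97.0 to 184 CPM). Without Lcp1, library 19 had 66.5 CPM where libraries 7, 13 and 15 had 4.39 to 9.17 CPM, so that leukocyte genes, too, were higher in the Sca-1+ library with the most class II reads. The part of plasma cell, neutrophil and other leukocyte RNA in the values of library 19, and that of macrophages in Sca-1+, was not tested, and all values without that library stand beside the results above.

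Within Sca-1-, H2-Ab1 was highest in library 22 and then in 16, 14, 8 and 10, and the B cell list was highest in library 22 and then in 14, 16, 8 and 10. The general leukocyte list ran from library 8 down to 10, 16, 14 and 22 by summed CPM, and from 16 down to 14, 22, 8 and 10 by mean log2 CPM. With library 22 left out together with library 19, the log2 fold change was 2.77 for H2-Ab1 (adjusted p = 0.0076), 3.82 for H2-Aa (adjusted p = 0.032), 2.31 for Cd74 (adjusted p = 0.039) and 1.75 for H2-Eb1 (adjusted p = 0.074), all by edgeR. The part of B cells in the Sca-1- values was not tested.

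**Figure D4:**
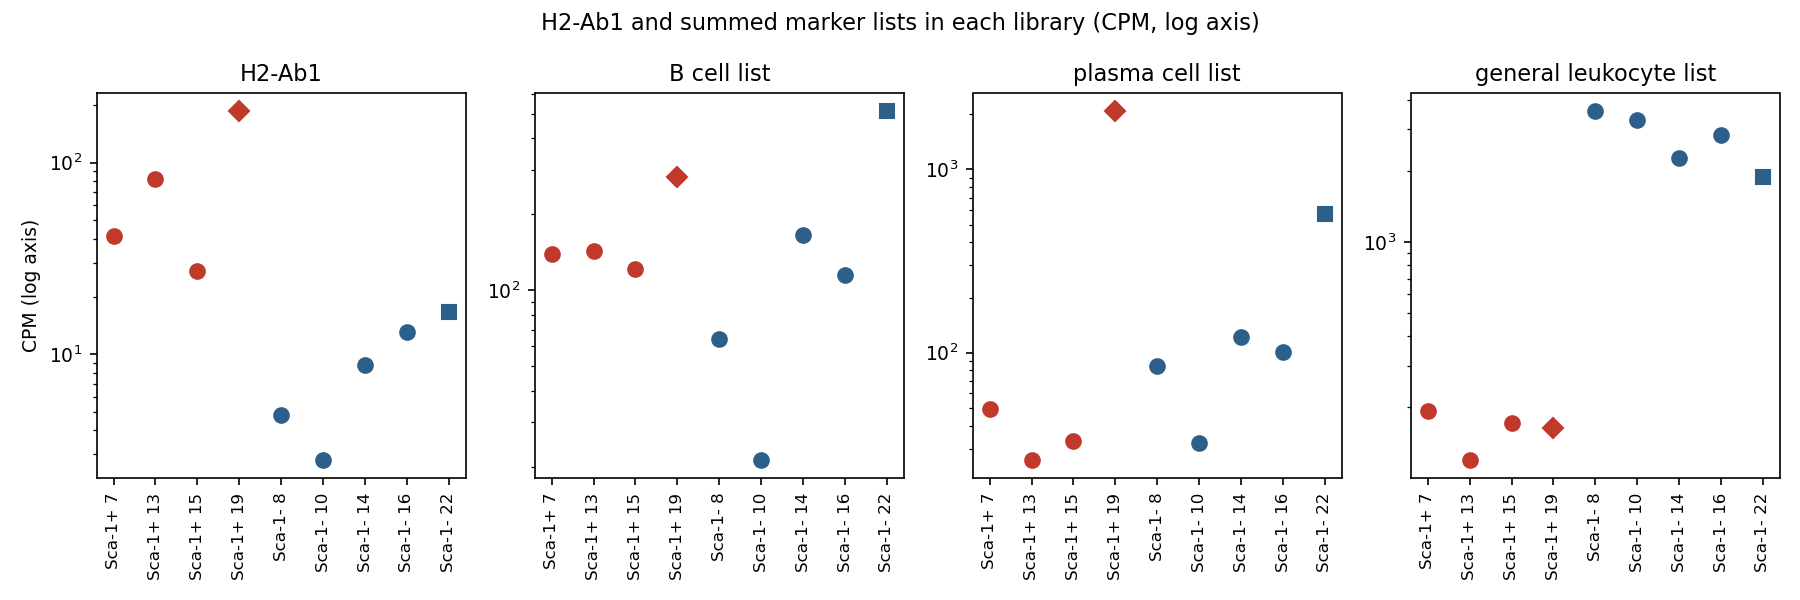
H2-Ab1 and the summed B cell, plasma cell and general leukocyte lists in each library, in CPM on a log axis, Sca-1+ in red and Sca-1- in blue, with library 19 as a diamond and library 22 as a square. The plasma cell sum of library 19 is 2085 CPM, and the leukocyte sum of every Sca-1+ library is below that of every Sca-1- library.

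Deviations of the 7 genes from the mean of each fraction were positively correlated for every pair, to very different degrees. Pearson's r of these deviations over the 9 libraries ranged from 0.15 (H2-Ab1 with Ciita) to 0.88 (H2-Eb1 with H2-DMa), and H2-Ab1 with Cd74 gave 0.86. The points share libraries, and library 19 weighs on each of them. By this measure 9862 genes with an average log2 CPM of at least 3 were compared with the mean of H2-Aa, H2-Ab1, H2-Eb1 and Cd74. The 5 most alike were Slc10a6 (0.92), Zbtb44 (0.91), Cd79b (0.89), Zdhhc2 (0.88) and Igkc (0.88). Without library 19 these values were 0.92, 0.86, 0.85, 0.79 and 0.81. Cd79b encodes a chain of the B cell receptor complex, Slc10a6 a transporter of sulfated steroids, Zbtb44 a zinc finger protein and Zdhhc2 a palmitoyltransferase. Cd79b itself was lower in Sca-1+ (0.997 ± 1.27 CPM, SD, n = 4, against 32.1 ± 34.0 CPM, SD, n = 5; adjusted p = 0.0072, edgeR).

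H2-DO, the inhibitor of H2-DM in B cells, and further class II genes gave few reads. H2-Oa had 3, 3, 0 and 0 counts in Sca-1+ libraries 7, 13, 15 and 19, at or under the floor of 3 counts, and 20, 15, 38, 791 and 39 in Sca-1- libraries 8, 10, 14, 16 and 22. It was lower in Sca-1+ (adjusted p = 0.0053, edgeR), although DESeq2 gave it no p-value and it did not pass with the replicate block. Most of its Sca-1- reads came from library 16. H2-Ob, its partner, had 4.64 ± 1.83 CPM (SD, n = 4) in Sca-1+ and 9.89 ± 6.5 CPM (SD, n = 5) in Sca-1- (adjusted p = 0.12, edgeR). The near copy H2-DMb2 was too low to be tested, and H2-Eb2 and H2-Ea-ps, the remnant of the E alpha gene in this haplotype, had 0 counts in every library.

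The counts of the groups that follow stand beside 23.3% higher and 21.4% lower among all genes tested. Of 11 genes of endosomal processing, 6 were higher in Sca-1+, 3 were lower and 2 did not pass the threshold, with a median log2 fold change of 1.86. Ctsl, cathepsin L, a protease that degrades the invariant chain in thymic epithelium, had 1112 ± 448 CPM (SD, n = 4) in Sca-1+ and 43.1 ± 37.9 CPM (SD, n = 5) in Sca-1- (log2 fold change 4.69, SE 0.65, adjusted p = 3.0e-04, edgeR). Lgmn, the asparagine endopeptidase, and Ctsb, cathepsin B, were higher by log2 fold changes of 3.82 and 3.51, Ctsc by 2.29, Ctsh by 1.86 and Cst3, an inhibitor of cysteine cathepsins, by 1.98. Ctss, cathepsin S, which completes invariant chain degradation in B cells and dendritic cells, had 4.6 ± 7.31 CPM in Sca-1+ and 4.84 ± 3.35 CPM in Sca-1- (SD; log2 fold change -0.07, SE 1.0, adjusted p = 0.96, edgeR). Ifi30, a thiol reductase that prepares disulfide-bonded antigens, was lower in Sca-1+ (log2 fold change -1.56), as were Ctsz (-1.66) and Ctsd (-1.12).

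Of 14 tested genes of class II transcription, 5 were higher, 2 were lower and 7 did not pass, a share of calls near the 44.8% of all genes, with a median log2 fold change of 0.49. Among subunits of the RFX complex, which binds the X box, Rfxap and Rfxank were each higher by 0.64 on the log2 scale (adjusted p = 0.024 and 0.022, edgeR), and Rfx5 had a log2 fold change of 1.19 (SE 0.48) that did not pass (adjusted p = 0.069, edgeR). Of NF-Y, which binds the Y box, Nfyc was lower (log2 fold change -0.55), whereas Nfya and Nfyb did not pass. Prdm1, a repressor of Ciita in plasma cells, had 35.6 ± 6.39 CPM (SD, n = 4) in Sca-1+ and 1.20 ± 1.37 CPM (SD, n = 5) in Sca-1- (log2 fold change 4.89, SE 0.92, adjusted p = 0.0017, edgeR), with 42.6, 27.3, 37.6 and 34.8 CPM in libraries 7, 13, 15 and 19. Irf8 was higher too (2.13), as was the acetyltransferase Kat2b (1.17). Spi1, the myeloid and B cell factor PU.1, was lower (-4.24).

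Of 9 tested genes of the interferon gamma route to Ciita, 6 were higher in Sca-1+, 1 was lower and 2 did not pass. Both receptor chains were higher, Ifngr1 at 461 ± 59.4 against 116 ± 73.8 CPM (log2 fold change 1.99) and Ifngr2 at 87.1 ± 17.3 against 17.7 ± 10.5 CPM (2.29; SD, n = 4 and n = 5). Usf1, a factor at an inducible Ciita promoter, was higher by 0.93. Irf1, a transcription factor that interferon gamma induces, had a log2 fold change of 4.0 (SE 0.59) and Socs1, the feedback inhibitor of the JAK kinases, one of 2.89 (SE 0.44). The kinase Jak2 was lower (log2 fold change -2.22, SE 0.35, adjusted p = 6.1e-04, edgeR). Ifng itself, the ligand, had 0 counts in all 9 libraries. Ciita stands at the end of this route, with the values given above.

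Of 9 tested genes of class II turnover and traffic, 6 were lower, beside 21.4% of all genes, 1 was higher and 2 did not pass, with a median log2 fold change of -1.29. March8, a ubiquitin ligase for class II beta chains, had 23.7 ± 6.76 CPM in Sca-1+ and 87.1 ± 51.2 CPM in Sca-1- (SD; log2 fold change -1.88, SE 0.43, adjusted p = 0.0055, edgeR). The leukocyte tetraspanins Cd53 and Cd37 were lower (-5.40 and -5.31), as was Cd9 (-2.96), a tetraspanin that megakaryocytes also carry, whereas Cd81 was higher (1.52). For CD74, Mif, the ligand, was lower (log2 fold change -1.56), as was the partner Cd44 (-4.67), while the MIF homologue Ddt was higher (1.44). Cxcr2, a chemokine receptor that also binds MIF, ranged from 0 to 1.63 CPM in Sca-1+ and from 0.961 to 42.2 CPM in Sca-1-, and was lower (adjusted p = 0.045, edgeR).

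Of 7 tested genes of co-stimulation and adhesion to T cells, 4 were higher in Sca-1+, 1 was lower and 2 did not pass, with a median log2 fold change of 3.15. Icam1, the adhesion molecule bound by LFA-1, had 1259 ± 259 CPM in Sca-1+ and 35.9 ± 19.2 CPM in Sca-1- (SD; log2 fold change 5.13, SE 0.50, adjusted p = 4.9e-05, edgeR). Tnfsf9, the ligand of 4-1BB, was higher by 4.01, Cd40 by 3.87 and Icosl, the ICOS ligand, by 3.15. Cd48, a leukocyte surface protein, was lower (-4.51). Cd80 and Cd86, the CD28 ligands of professional presenting cells, were too low to be tested, with at most 0.194 and 0.170 CPM in any Sca-1+ library. Cd274, the inhibitory ligand PD-L1, had 42.0 ± 46.5 CPM in Sca-1+ and 160 ± 140 CPM in Sca-1- (SD; log2 fold change -1.92, SE 0.86) and did not pass (adjusted p = 0.093, edgeR).

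**Figure D5:**
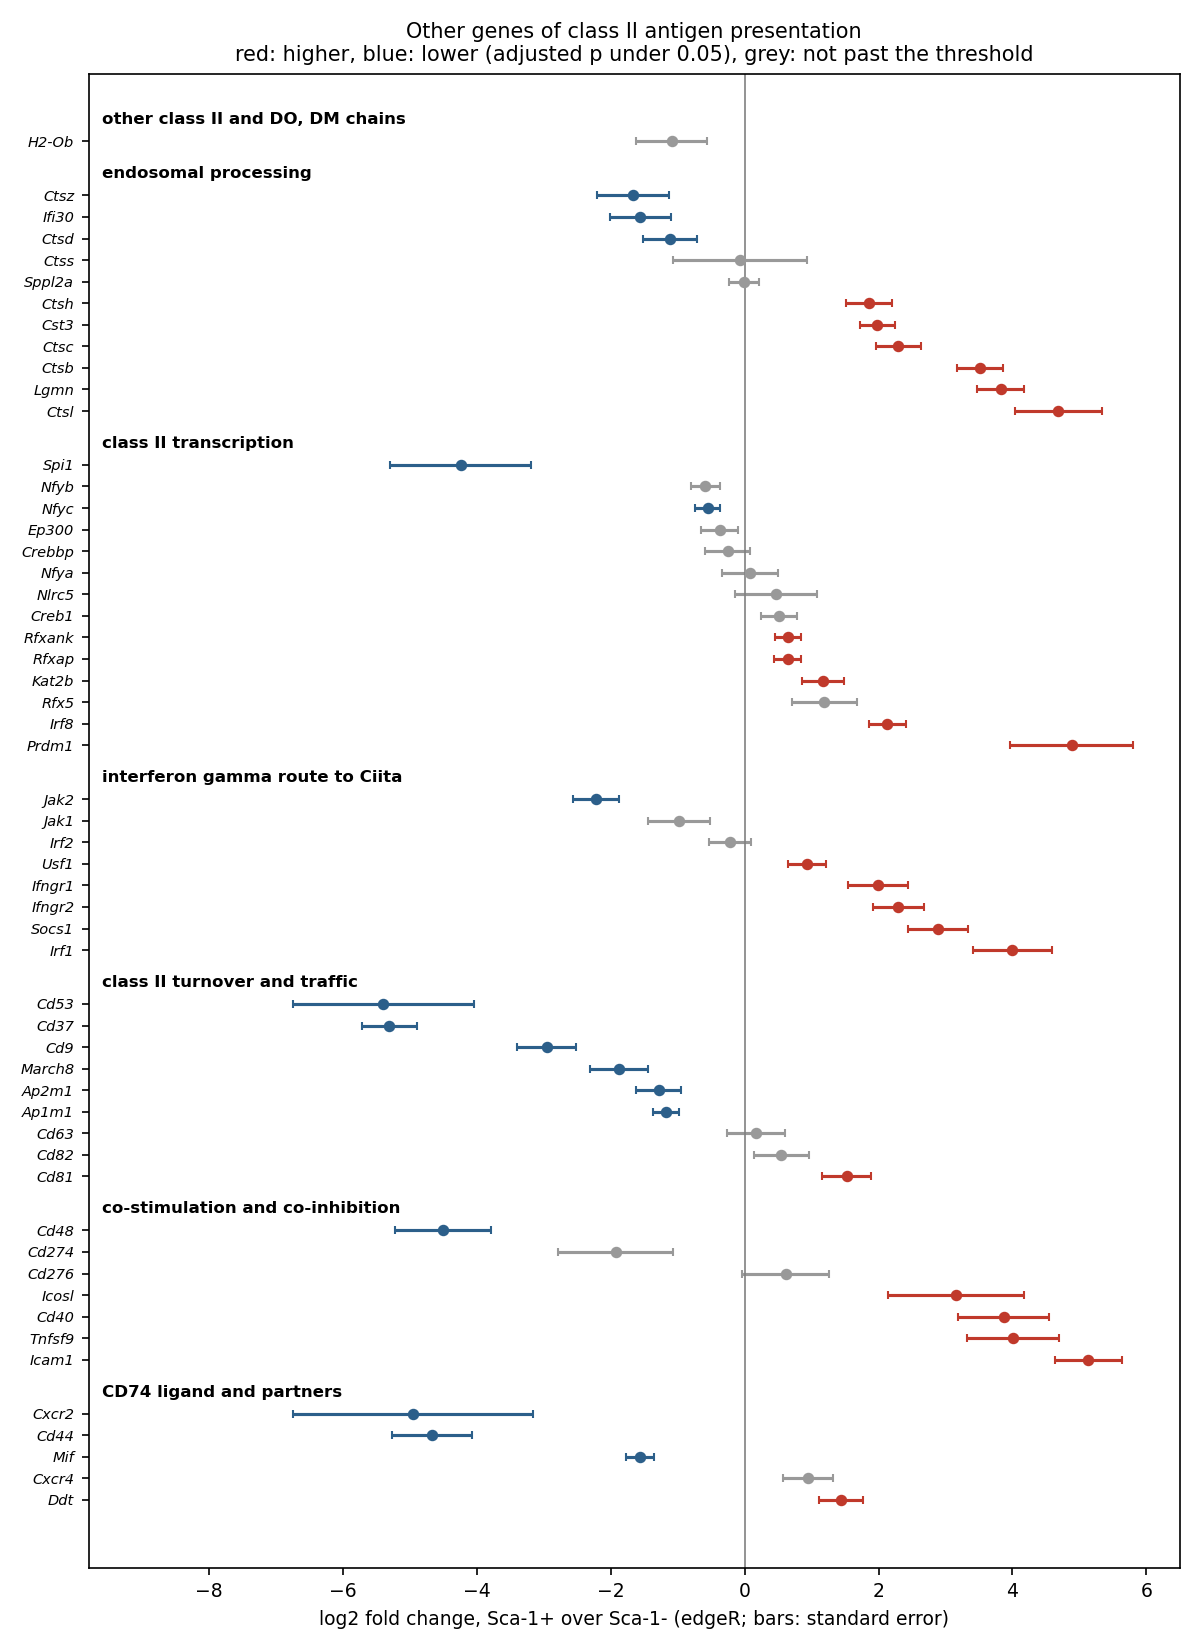
Log2 fold change, Sca-1+ over Sca-1-, with its standard error (edgeR), for genes of 7 groups around class II presentation that were tested and are reported here, H2-Oa left out for its floor in Sca-1+, red where higher, blue where lower and grey where the threshold was not passed. Endosomal proteases, the interferon gamma route and co-stimulation have mostly red points, and turnover and traffic mostly blue ones.

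The sign of 4 of the 7 genes (H2-Ab1, H2-Eb1, H2-DMb1 and Ciita) depends on what the libraries are scaled to. TMM scaling makes the typical gene equal between the fractions. Libraries were also scaled instead to the sum of the general EC genes. In Sca-1- this sum, 1987 to 4706 CPM, rested largely on Pecam1 and Esam, with means of 836 and 1031 CPM. Both genes missed the threshold between the fractions (adjusted p = 0.25 and 0.76, edgeR). Whether the sum follows EC RNA in Sca-1- was not tested. With this scaling the log2 fold change was 0.82 for H2-Aa (adjusted p = 0.51), 0.22 for Cd74 (adjusted p = 0.82), -0.20 for H2-Ab1 (adjusted p = 0.81), -0.41 for H2-Eb1 (adjusted p = 0.67) and -2.0 for Ciita (adjusted p = 0.15), none past the threshold by edgeR. H2-DMa and H2-DMb1 were then lower in Sca-1+ (-4.69 and -1.86; adjusted p = 1.5e-04 and 0.030, edgeR). That scaling moved the median of all genes by -3.23, and relative to this shift the classical chains and Cd74 lay above the typical gene, and H2-DMa below it. Of the genes around class II, none of the endosomal, transcription, interferon gamma, turnover or CD74 groups was then higher in Sca-1+, and 1 of co-stimulation was. The ratios within libraries given above do not depend on this choice.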

How the data were processed

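Poly(A) RNA from sorted cells (miRNeasy micro) was made into SMART-Seq v4 libraries. The authors deposited raw read counts of each gene, as whole numbers without normalization; the submitters' processing notes name STAR, featureCounts and mm10. Strand use is not given in the sources used here. There are no molecular identifiers, so precision from depth covers counting error only. Groups came from the deposited labels.

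In R 4.3.3, edgeR 4.0.16 was run with filterByExpr (minimum count 10, minimum total 15), TMM and the two-sided quasi-likelihood F-test, with p-values adjusted after Benjamini and Hochberg across the 15937 tested genes (threshold 0.05). Log2 CPM used a prior count of 2, and 3 counts or fewer was the floor. Single values were tested by exact permutation over libraries. Alternatives used DESeq2 1.42.0 and limma 3.58.1. The fits were checked on simulated data. Coordinates, transcript lengths and overlaps came from GENCODE M21 (GRCm38), which held 45143 of 46078 identifiers. Figures were drawn with matplotlib 3.10.9.

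The 7 genes, the lists and the rule for named genes were chosen with earlier results of these data known. That rule took the 7, the genes of the lists, and the 5 genes most like the mean of H2-Aa, H2-Ab1, H2-Eb1 and Cd74. The promoter motifs and genes of the text outside that rule (Brd2 and Dexi) were chosen after their values were seen. Some genes of the lists are counted within them but are not reported here by name.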

Additional observations from a re-analysis of the deposited data

Results flagged for a closer look

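Within fractions, 140 sets of values (log2 CPM of the 7 genes and of the tested genes around them, and the ratios) were searched for a single library far from the rest by Dixon's criterion, and 9 were found, where chance gives about 1 in 20. Among ratios, H2-Eb1 over H2-Ab1 was -1.77 (log2) in Sca-1+ library 19, where libraries 7, 13 and 15 had -2.85 to -2.70, and H2-DMb1 over H2-DMa was -3.36 in Sca-1- library 14 and -2.43 to -2.10 in the others. In Sca-1+ library 19 the log2 CPM was 6.51 for Jak2 (others 5.94 to 5.99), 4.91 for Icosl (others 2.89 to 2.98) and 0.77 for Cxcr2 (42 counts; others -3.63, at 0 counts). In Sca-1+ library 13 Ifi30 had -0.10, with 25 counts (others 1.16 to 1.3). Among Sca-1- libraries, H2-Oa had 4.72 in library 16 (791 counts; others 0.17 to 0.76), Nfyc had 5.41 in library 10 (others 4.94 to 5.02), and Nlrc5, the transactivator of class I genes, had -0.69 in library 8, with 9 counts (others 2.06 to 3.11).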

How the results depend on the processing

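The 10 planned settings, the fits without one library each, and a fit without Sca-1+ library 19 and Sca-1- library 22 were compared; that fit, the ratios with Sca-1- library 16 and the marker sums without their leading gene were chosen after seeing the data; values are log2 fold changes, and the causes of the changes were not tested unless said. The count of 7137 called genes became 13213 with scaling to general EC genes (335 higher, 12878 lower), by construction of that scaling, and 4340 with the replicate block on 6 libraries, which gave 5360 without it; with library size alone it was 6589 (4158 higher, 2431 lower). Scaling to EC genes gave 0.82 for H2-Aa, -0.20 for H2-Ab1, -0.41 for H2-Eb1, -4.69 for H2-DMa, -1.86 for H2-DMb1, 0.22 for Cd74 and -2.0 for Ciita. H2-DMa passed with DESeq2 (-1.48) and limma voom (-1.88), where H2-Eb1 (2.28) and Cd74 (2.60) missed the threshold. The numbers 7 and 8, 13 and 14, and 15 and 16 were tried as pairs in a replicate block. Deviations of these pairs correlated at 0.148 or less, with 0.042 for 15 and 16, whose labels share a mouse number. The mean was 0.112, against -0.020 for the other pairs, and each of the 6 libraries correlated best with its own number. The main fit did not use the numbers as pairing, and a low correlation does not show that paired libraries came from separate animals. With the block H2-Aa was at 4.35, H2-Eb1 at 2.07 and Cd74 at 1.56, all short of the threshold, H2-DMa passed at -2.21, and Ciita was at -0.38. The same 6 libraries without the block gave 3.66, 1.92, 2.01, -2.0 (H2-DMa) and -1.28 (Ciita), with the same losses. Without libraries 19 and 22 the values were 1.75 for H2-Eb1, -1.97 for H2-DMa and -1.27 for Ciita. Leaving out one library each gave 3.02 to 4.90 for H2-Aa, 1.5 to 3.20 for H2-Eb1, -2.11 to -1.07 for H2-DMa, 0.43 to 1.66 for H2-DMb1 and -1.09 to 1.75 for Ciita; each first value is without library 19, and H2-DMb1 passed without Sca-1+ library 15 (1.66). Differences in log2 ratios ranged from -0.0027 (without Sca-1- library 14) to 0.37 for H2-Aa over H2-Ab1, from -5.08 to -4.56 for H2-DMa over H2-Ab1 and from 2.48 to 2.93 for H2-DMb1 over H2-DMa; the last 2 missed the threshold because 8 libraries allow no smaller exact p. Compared by mean log2 CPM instead of summed CPM, the plasma cell (-0.92), macrophage (0.13) and smooth muscle (1.11) lists changed sign between the fractions, and by summed CPM without Lyz2 the macrophage list did too (2.61). The interval of a fold change reflects the spread between these libraries, and floors cover counting error only.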
